A study of Mus musculus with 18 samples.

Results

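The cell division genes described here are 36 genes that cells use to copy their DNA, build a spindle and part into daughter cells. They were chosen by symbol from a list of proliferation genes, and each of the 36 symbols matched 1 Ensembl gene among the 55401 gene identifiers of the deposited count table. By role they are 9 replication genes, 4 genes for the mitotic cyclins and their kinase, 7 mitotic kinases and checkpoint or passenger genes, 10 spindle and kinetochore genes, and 6 genes for chromosome structure, mitotic exit and cytokinesis. All 36 passed the filter on low counts and were tested among 18994 genes.

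Dividing cells switch these genes on in order. The Mcm helicase, the Pcna clamp and the nucleotide supplier Rrm2 serve DNA synthesis, after which cyclins A and B with Cdk1 drive entry into mitosis. Kinesins, kinetochore proteins and Aurora kinases then segregate the chromosomes, and anillin and Ect2 close the cleavage furrow. Most neurons of the adult brain no longer divide. Dividing cells of the adult forebrain include the progenitors along the wall of the lateral ventricle and in the hippocampus, and oligodendrocyte precursors throughout the tissue.

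RNA sequencing measured polyA RNA of the BNST, the bed nucleus that belongs to the stria terminalis, which lies near the lateral ventricle and the striatum, and of the prelimbic medial prefrontal cortex (mPFC). All mice were wild-type C57BL/6 males, 6 to 8 weeks old. Formalin mice received 10 µL of 1% formalin in a hind paw and were taken 24 h later. CFA mice received 10 µL of 50% complete Freund's adjuvant, an emulsion that gives lasting inflammation, and were taken 72 h later. Control mice had no injection, so neither the injection itself nor the time of collection can be told apart from the agent. Each of the 6 groups had 3 libraries, 18 in all. By the animal numbers in column names of the study, both regions came from the same 3 brains in the formalin and in the CFA groups, whereas the control groups share 2 brains and have 1 further brain each.

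The libraries held 14781315 to 23408503 counts. A member's level is given as CPM (counts scaled per library to a common total), scaled between libraries by TMM, and levels of different members are compared only as TPM (transcript abundance on a common total), which divide by exon length. Every mean ± SD below is over n = 3 libraries. In edgeR's quasi-likelihood test a gene was called when its p-value, adjusted by Benjamini and Hochberg over all genes tested, was under 0.05 and its absolute log2 fold change above 0.5. Within a region the libraries come from separate brains. The p-values rest on a spread estimated in 1 fit of all 18 libraries, so a test in the BNST also draws on mPFC libraries. Replicates differed more in the BNST, where the chi-square per degree of freedom of a replicate pair was 8.05 to 79.15, against 3.8 to 10.8 in the mPFC. The shared estimate can therefore be too small for the BNST. For comparisons across regions the fit treats all libraries as independent, although the shared brains gave a library of each region. In tissue samples of this kind, fewer cells of a type and less RNA per cell cannot be told apart.

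Several libraries stood apart from their group. Control replicate 3 held the highest of the 3 control values for 26 of the 36 members in the BNST and for 28 in the mPFC, 22 of them shared, and column names of the study give both libraries the same animal number. BNST CFA replicate 2 carried much more choroid plexus RNA than its group. The summed level of 9 choroid plexus genes was 17700 CPM there and 165 and 202 CPM in the other BNST CFA libraries, and it ranged from 23.8 to 736 CPM in the BNST controls and from 2900 to 8790 CPM after formalin. The same column names place 2 BNST control libraries in sequencing lane 1, 1 BNST formalin library in lane 3 and all others in lane 2.

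The members differed widely in level. In the BNST of control mice, Pcna was highest at 48.9 TPM, followed by Anln at 21.5, Mcm4 at 17.7 and Mcm7 at 16.2 TPM. Mki67 averaged 3.84 TPM and Top2a 3.18 TPM, close to Mcm3 at 3.82 and Prc1 at 3.73 TPM. The lowest were Cdk1 at 0.597, Bub1 at 0.545, Hmmr at 0.5 and Kif11 at 0.301 TPM. The low count limit corresponded to 0.577 CPM in a library of median size. In all 18 libraries 19 members reached it, 7 reached it in 10 to 17 libraries and 10 in 4 to 9 libraries, so the last entered the test through the groups in which they were high. These 10 were Clspn, Cdk1, Ccnb1, Bub1, Aurkb, Pbk, Kif11, Hmmr, Cdca2 and Ube2c, and the counts of calls below include them. The smallest total over the 18 libraries was 93 counts, for Aurkb.

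The sequences at the start sites of these genes carry letters that are known from genes of the same cycle phase. The cell cycle homology region (CHR, TTTGAA) is bound by the MuvB complexes, the CCAAT box by NF-Y, and E2F factors bind the letters TTTGGCGC, TTTGCCGC, TTTCGCGC or TTTCCCGC. RefSeq promoter windows of 250 bases before to 50 after the start (GRCm38.p6) were listed for 30 members, and not for Mcm4, Ccna2, Aurkb, Pbk, Tpx2 and Cdca2. On either strand, CHR letters stood in 17 of the 30 (56.7%, against 18.1% of 27025 promoters), CCAAT in 24 (80%, against 37.9%) and E2F letters in 7 (23.3%, against 2.3%). CHR and CCAAT letters stood together in 14 of 30 (46.7%, against 7.1%). E2F and CCAAT letters can overlap, and a match describes letters, not a site that is bound.

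Windows of 170 bases before to 30 after the start are shown for the members whose change in the BNST passed the test in both comparisons with CFA mice whichever library was left out, as far as the tables list them, and for Anln, which moved the other way. Capitals mark CHR, CCAAT and E2F letters, on either strand, that lie wholly in the window, and each sequence is read 5′ to 3′ on the gene's strand. In Mki67 both CHR matches follow a CCAAT box, in Prc1 a CCAAT box stands 37 bases and a CHR 5 bases before the start, and in Anln the CHR letters lie after the start with no CCAAT.
Mki67, chr7:135716350-135716549, minus strand: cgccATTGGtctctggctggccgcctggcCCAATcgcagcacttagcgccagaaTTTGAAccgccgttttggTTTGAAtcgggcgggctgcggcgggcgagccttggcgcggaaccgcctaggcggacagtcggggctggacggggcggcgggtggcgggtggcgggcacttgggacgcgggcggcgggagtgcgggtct
Top2a, chr11:99024160-99024359, minus strand: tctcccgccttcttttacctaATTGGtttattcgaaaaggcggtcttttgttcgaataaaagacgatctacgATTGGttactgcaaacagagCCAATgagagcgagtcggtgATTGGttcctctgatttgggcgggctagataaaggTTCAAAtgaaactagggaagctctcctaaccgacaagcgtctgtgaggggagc
Prc1, chr7:80294281-80294480, plus strand: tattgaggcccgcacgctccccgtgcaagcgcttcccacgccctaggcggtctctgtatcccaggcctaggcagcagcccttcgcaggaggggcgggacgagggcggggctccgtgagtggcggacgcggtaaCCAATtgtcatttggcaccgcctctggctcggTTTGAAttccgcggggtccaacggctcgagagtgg
Mcm5, chr8:75109339-75109538, plus strand: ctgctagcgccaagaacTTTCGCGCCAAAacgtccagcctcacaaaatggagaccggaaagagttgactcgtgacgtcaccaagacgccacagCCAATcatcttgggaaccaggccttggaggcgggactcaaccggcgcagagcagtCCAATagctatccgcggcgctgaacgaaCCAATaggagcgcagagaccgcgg
Clspn, chr4:126556810-126557009, plus strand: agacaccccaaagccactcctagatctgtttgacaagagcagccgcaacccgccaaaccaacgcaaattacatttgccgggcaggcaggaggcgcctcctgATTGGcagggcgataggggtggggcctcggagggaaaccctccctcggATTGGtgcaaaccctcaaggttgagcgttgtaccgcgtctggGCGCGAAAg
Anln, chr9:22389177-22389376, minus strand: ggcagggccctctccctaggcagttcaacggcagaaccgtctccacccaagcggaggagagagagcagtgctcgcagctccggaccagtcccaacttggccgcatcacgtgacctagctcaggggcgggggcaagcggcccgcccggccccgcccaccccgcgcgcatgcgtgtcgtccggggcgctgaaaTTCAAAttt

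In the BNST 24 h after formalin, no cell division gene passed the test. The study asks how an acute and a persistent pain model change both regions, and this comparison addresses the acute one. None of the 36 members was called higher or lower with edgeR, where 0.195% of all genes tested were called higher and 0.105% lower, and limma-voom also called none. DESeq2 called none either, but gave no adjusted p for 15 of the 36. At an unadjusted p under 0.05 stood 2 members, against 19.6% of all genes. The median log2 fold change of the members was 0.12, beside -0.04 for all genes.

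Mki67, the marker of cycling cells, was at 9.89, 6.18 and 11.9 CPM in the control BNST and at 10.9, 9.11 and 8.04 CPM after formalin. The groups overlapped, and the fitted log2 fold change was 0.00 ± 0.37 (SE). Top2a, the topoisomerase that untangles chromosomes, was at 5.99, 4.42 and 10.3 CPM against 7.42, 9.11 and 8.12 CPM, again with overlap. The members at the lowest p were Pcna, with a log2 fold change of 0.29 ± 0.09 (SE, edgeR adjusted p = 0.11), and Anln, with 0.53 ± 0.20 (edgeR adjusted p = 0.18).

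**Figure D1:**
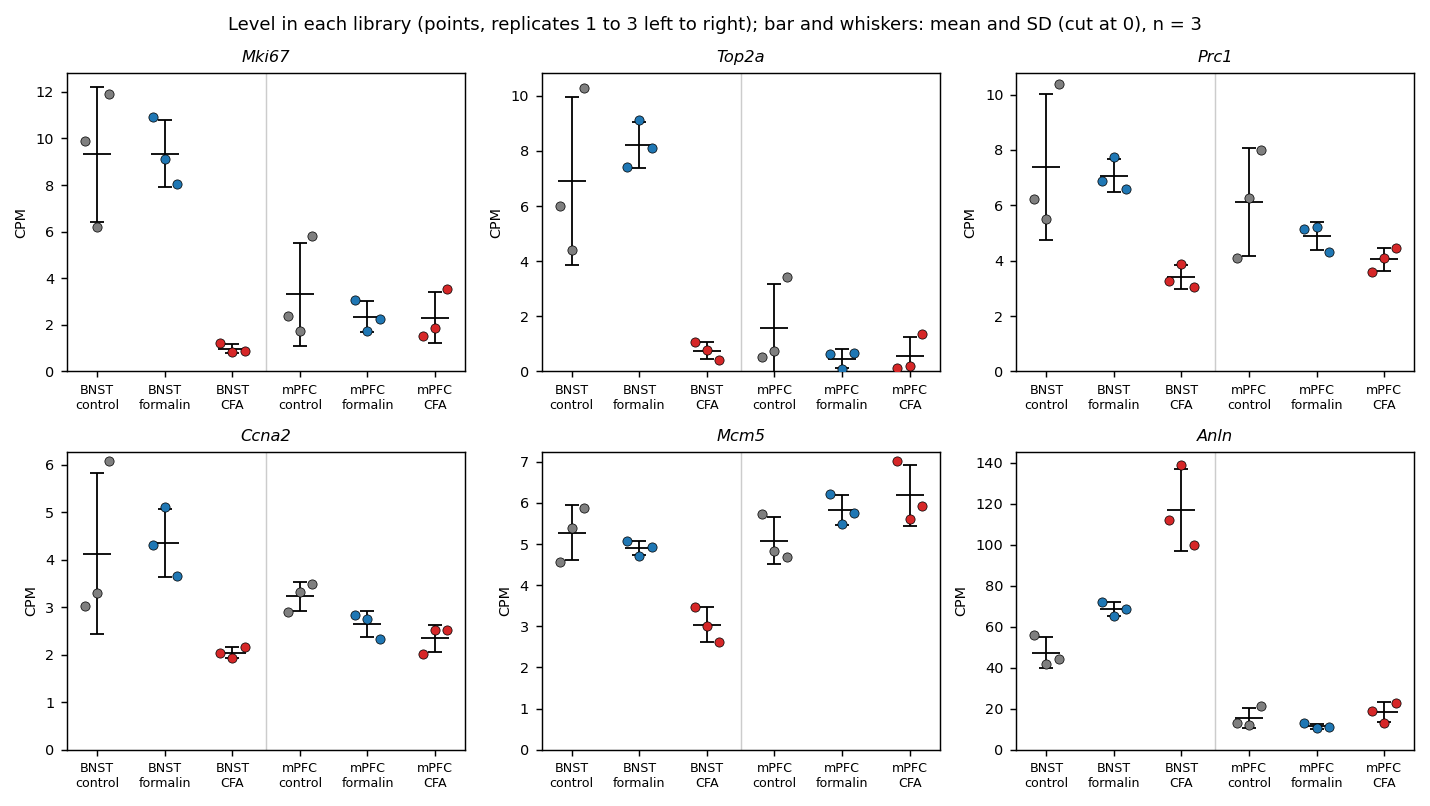
Level (CPM, y axis from 0) of 6 members in each of the 18 libraries by region and treatment (x axis); points are libraries, bars and whiskers the mean and SD of 3. In the BNST, all 3 CFA libraries lie below all control and formalin libraries for Mki67, Top2a, Prc1, Ccna2 and Mcm5, and above them for Anln.

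In the BNST 72 h after CFA, 13 cell division genes fell and 1 rose against control. This comparison addresses the persistent pain model. The 13 lower members stand beside 7.06% of all genes called lower and the 1 higher member beside 4.89% called higher. Among the 13, Clspn, Bub1, Aurkb and Ube2c entered the test through the groups in which they were high. The median log2 fold change over the 36 members was -0.82, and 0.01 over all genes. An unadjusted p under 0.05 was found for 19 members, against 36.5% of all genes. In 30 of the 36 members the fold change was below 0. It was above 0 in 16.7% of the members, against 51.5% of all genes. In 14 members all 3 CFA values lay below all 3 control values, against 16.1% of all genes.

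**Figure D2:**
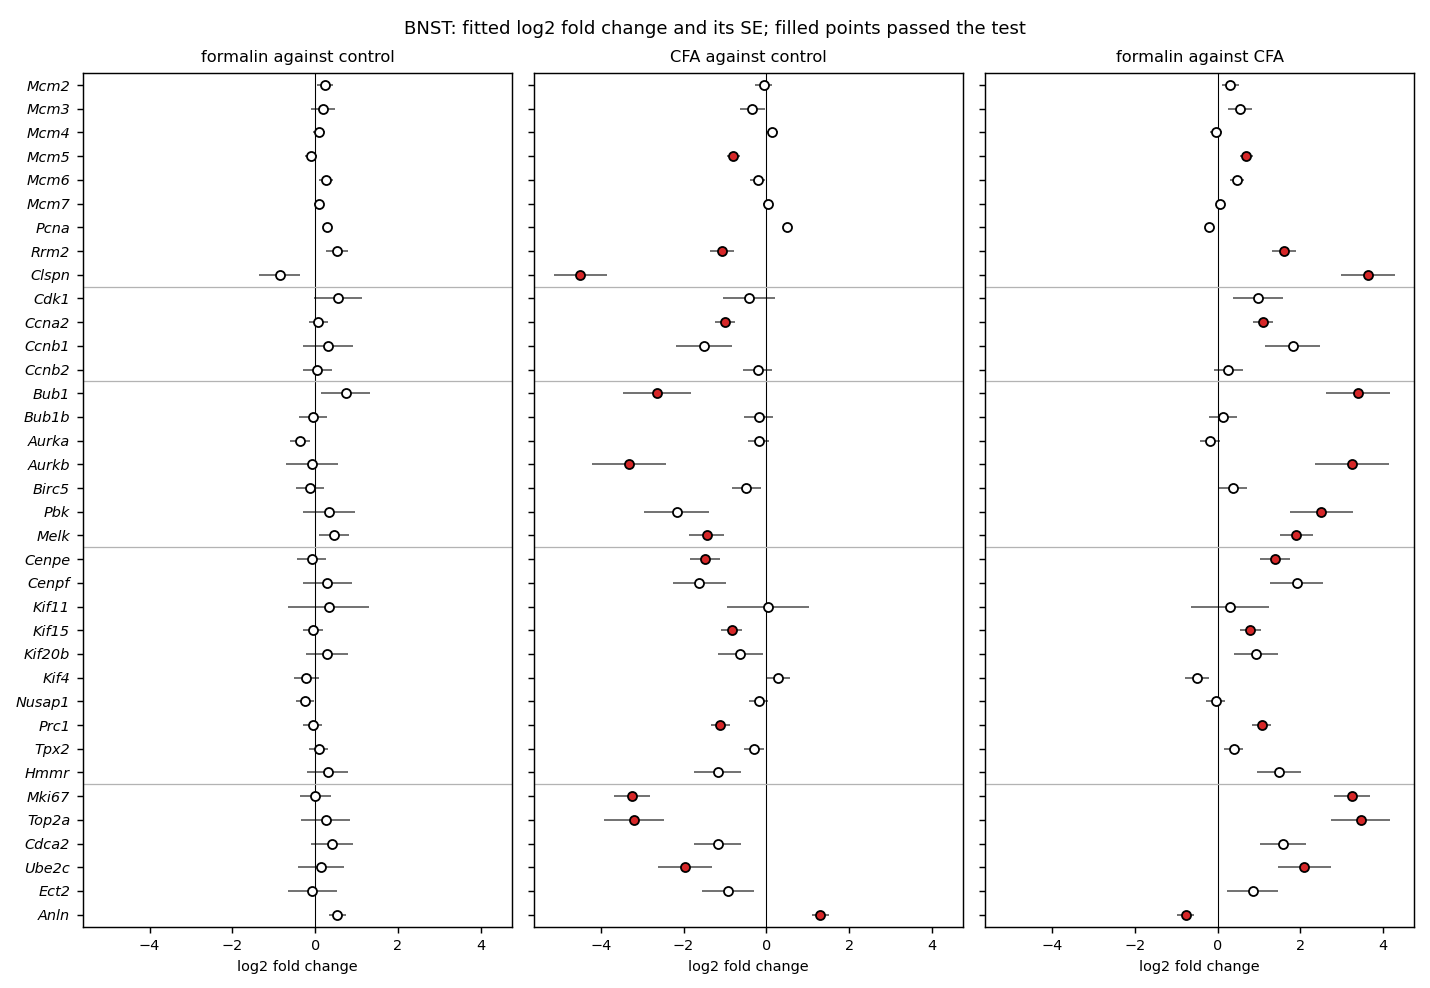
Fitted log2 fold change (x axis, points) and its SE (lines) of the 36 members, grouped by role, for formalin against control, CFA against control and formalin against CFA in the BNST; filled points passed the test. No point is filled for formalin, 13 filled points lie below 0 and Anln above 0 for CFA, and the signs turn for formalin against CFA.

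Among the genes for chromosome structure, mitotic exit and cytokinesis, 3 fell and 1 rose. Mki67 was at 1.21, 0.838 and 0.892 CPM in the 3 CFA libraries, below all 6 other BNST libraries, and fell by 3.25 on the log2 scale (SE 0.44, edgeR adjusted p = 9.6e-05). Top2a was at 1.05, 0.788 and 0.423 CPM and fell by 3.2 (SE 0.72, edgeR adjusted p = 0.0061). Both calls held with each of the 18 libraries left out in turn. Ube2c, the ubiquitin enzyme of the anaphase-promoting complex, was at 0.927, 0.227 and 1.49 CPM in control and 0.386, 0.0985 and 0.188 CPM after CFA. Its ranges overlapped, and it fell by 1.96 (SE 0.65, edgeR adjusted p = 0.039). The call was lost without BNST control 1 or 3, mPFC control 1, BNST formalin 2, or BNST CFA 2 or 3 (adjusted p up to 0.21), and 22.8% of its exon length is shared with Tnnc2 on the other strand. Cdca2, which targets a phosphatase to chromosomes at mitotic exit, and Ect2, the exchange factor that starts the cleavage furrow, had log2 fold changes of -1.18 ± 0.56 and -0.93 ± 0.62 and were not called.

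Anln went the other way. Anillin is the scaffold of the cleavage furrow, and in the brain it is also known as a protein of myelin. Its level was 55.8, 42.0 and 44.3 CPM in control, 71.8, 65.1 and 68.6 CPM after formalin and 112, 139 and 99.7 CPM after CFA, with no overlap between the 3 groups. It rose by 1.30 ± 0.21 (log2 fold change and SE, edgeR adjusted p = 0.00049) after CFA, and the call held with each library left out. Of 8 genes of myelinating oligodendrocytes, a list chosen after the values of Anln were seen, Ermn rose by 0.85 ± 0.20 (edgeR adjusted p = 0.0076) and Opalin fell by 1.06 (SE 0.29, edgeR adjusted p = 0.017), while 6 were not called. The summed level of the 8 was 6560 to 9500 CPM in control and 7640 to 11000 CPM after CFA, with none at 0. Their part in the change of Anln was not tested.

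Of the 9 replication genes, 3 fell. Clspn, the adaptor that passes the replication stress signal to Chek1, had the largest fold change of all members. It was at 6.86, 11.8 and 1.92 CPM in control, 5.01, 3.58 and 2.85 CPM after formalin and 0.166, 0.345 and 0.376 CPM after CFA. The control values were uneven, and the CFA libraries lay below all of them, with a fall by 4.49 (SE 0.65, edgeR adjusted p = 0.00019). Mcm5, a helicase subunit, was at 4.57, 5.39 and 5.88 CPM in control and 3.48, 3.01 and 2.63 CPM after CFA. It fell by 0.80 (SE 0.16, edgeR adjusted p = 0.0018), and like Clspn it held with each library left out. Rrm2, the small subunit of ribonucleotide reductase, was at 3.46, 1.76 and 3.59 CPM against 1.82, 0.985 and 1.36 CPM, with 1 control inside the CFA range. It fell by 1.08 (SE 0.29, edgeR adjusted p = 0.014), which was lost without BNST control 3 or BNST CFA 2 (adjusted p up to 0.065).

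The other helicase subunits did not follow Mcm5. Their log2 fold changes were -0.07 ± 0.20 for Mcm2, -0.34 ± 0.30 for Mcm3, 0.14 ± 0.14 for Mcm4, -0.21 ± 0.18 for Mcm6 and 0.03 ± 0.12 for Mcm7, none called. The difference between Mcm5 and these was not itself tested. Pcna, the clamp that holds the polymerase on DNA, was at 31.4, 26 and 28.1 CPM in control and 40.2, 44.7 and 36 CPM after CFA. The groups did not overlap, and its log2 fold change of 0.5 ± 0.09 had an edgeR adjusted p of 0.0007, but it did not exceed the fold minimum and was not called.

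Among the mitotic cyclins and Cdk1, 1 of 4 fell. Ccna2, cyclin A2, was at 3.03, 3.29 and 6.07 CPM in control and 2.04, 1.92 and 2.16 CPM after CFA, a fall by 1.01 (SE 0.24, edgeR adjusted p = 0.0060) that held with each library left out. Its gene shares 12.5% of its exon length with Exosc9 on the other strand, and the strand setting of the counting is not given in the sources used here. Ccnb1 was at 1.36, 0.794 and 1.18 CPM against 0.276, 0.542 and 0.329 CPM. Its groups did not overlap, but its log2 fold change of -1.51 ± 0.68 was not called (edgeR adjusted p = 0.12). Ccnb2 and Cdk1 had log2 fold changes of -0.21 ± 0.35 and -0.43 ± 0.63 with overlapping groups. Cdk1 in the CFA libraries was at 0.331, 1.13 and 0.0939 CPM, and its highest value was in CFA replicate 2.

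Of the 7 mitotic kinases and checkpoint or passenger genes, 3 fell. Bub1, the checkpoint kinase at kinetochores, was at 0.494, 0.283 and 0.929 CPM in control and 0.166, 0.0985 and 0 CPM after CFA. Its fall by 2.65 (SE 0.82, edgeR adjusted p = 0.028) was lost without BNST control 3, BNST CFA 2 or BNST CFA 3 (adjusted p up to 0.14). Aurkb, the kinase of the chromosomal passenger complex, held 28 counts in the 3 control libraries and 3 in the 3 CFA libraries, a ratio of 11.2 (exact 95% interval 3.45 to 57.3, for counting error only). It fell by 3.32 (SE 0.90, edgeR adjusted p = 0.014), which was lost without BNST control 3 (adjusted p = 0.062). Melk, a kinase of cycling progenitors, was at 0.742, 1.02 and 0.867 CPM against 0.386, 0.394 and 0.188 CPM and fell by 1.44 (SE 0.42, edgeR adjusted p = 0.020). That call was lost without BNST control 2 or BNST CFA 3 (adjusted p up to 0.071).

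The other kinase and passenger genes showed smaller or less certain differences. Pbk had a log2 fold change of -2.17 ± 0.78 (edgeR adjusted p = 0.055), and its lowest control, 0.227 CPM, lay inside the CFA range of 0.141 to 0.246 CPM. Birc5, the survivin subunit of the passenger complex that holds Aurkb, was at -0.49 ± 0.35, Aurka, the kinase of the centrosome, at -0.19 ± 0.25, and the checkpoint gene Bub1b at -0.19 ± 0.34, all on the log2 fold change scale and not called.

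Of the 10 spindle and kinetochore genes, 3 fell. Prc1, which bundles the microtubules of the spindle midzone, was at 6.24, 5.5 and 10.4 CPM in control and 3.26, 3.89 and 3.05 CPM after CFA. It fell by 1.11 (SE 0.24, edgeR adjusted p = 0.0036), and the call held with each library left out, although 11.1% of its exon length is shared with Rccd1 on the other strand. Cenpe, the kinetochore motor, was at 1.98, 1.76 and 4.02 CPM against 0.938, 0.690 and 1.13 CPM and fell by 1.48 (SE 0.37, edgeR adjusted p = 0.0083), lost without BNST control 3 (adjusted p = 0.065). Kif15, a spindle kinesin, fell by 0.84 (SE 0.25, edgeR adjusted p = 0.022), lost without BNST control 2 or 3 or BNST CFA 2 or 3 (adjusted p up to 0.13).

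Cenpf and Hmmr also had all CFA values below all control values, with log2 fold changes of -1.62 ± 0.64 and -1.18 ± 0.56, and were not called with edgeR (adjusted p = 0.083 and 0.14). Cenpf was called by DESeq2, by limma-voom and by edgeR on the 9 BNST libraries alone. Nusap1, Tpx2, Kif20b and Kif4 had log2 fold changes between -0.63 and 0.27 with overlapping groups. Kif11, the motor that separates the spindle poles, split the libraries within every BNST group. It was at 1.42, 0.0567 and 0.186 CPM in control, 0.0589, 0.922 and 1.02 CPM after formalin and 0.0552, 0.739 and 0.845 CPM after CFA, and its log2 fold change was 0.03 ± 0.99.

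The count of members called depended on single libraries. Without BNST control 3, the library with the highest value for most members, 8 members were called, all of them among the 14, and without BNST CFA 2, the library rich in choroid plexus RNA, 10 were called, again all among the 14. Over the 18 libraries left out in turn, the count was between 8 and 17, and 7 of the 14 calls held every time. These were Mki67, Top2a, Clspn, Mcm5, Ccna2, Prc1 and Anln. A fit of the 9 BNST libraries alone called 12 members. In a fit of the 6 compared libraries alone only 4 members were called, Mki67, Top2a, Clspn and Anln, and Mcm5, Ccna2 and Prc1 had edgeR adjusted p-values of 0.07, 0.1 and 0.062. With the libraries of lane 2 only, 2 members were called higher and 14 lower, but the control arm is then BNST control 3 alone, the library highest for most members, and is assumed to vary like the other groups.

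**Figure D3:**
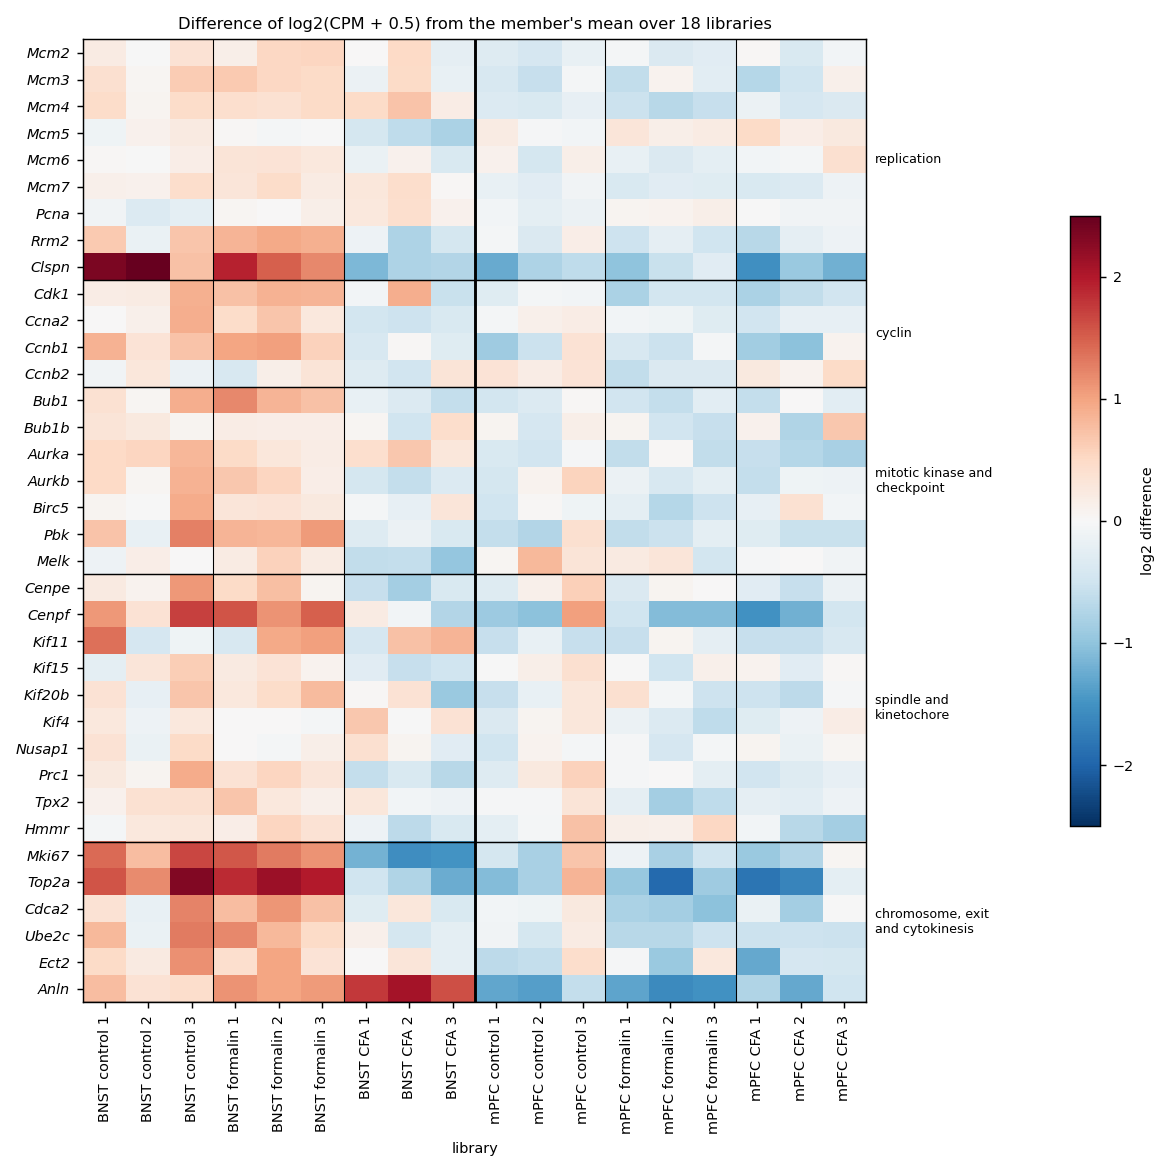
Difference of log2(CPM + 0.5) from each member's mean over the 18 libraries (colour, blue below and red above), for the 36 members by role (rows) and the 18 libraries by group (columns). The BNST CFA columns are blue for most members and red for Anln, control replicate 3 is the reddest of its group in both regions, and Kif11 differs within groups.

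After formalin, 14 cell division genes were higher than after CFA in the BNST and 1 was lower. This comparison sets both pain models against each other, at different times after injection. It uses the same CFA libraries as the comparison above, so they are not independent. The 14 stand beside 3.91% of all genes called higher and the 1 beside 2.96% called lower, and the median log2 fold change was 0.89 for the members and -0.01 for all genes. Unadjusted p-values under 0.05 were found for 21 members, against 30.8% of all genes. The lower member was Anln (-0.77 ± 0.20, edgeR adjusted p = 0.021), whose call was lost without BNST formalin 1 or 2 or BNST CFA 1 or 2 (adjusted p up to 0.078).

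The 14 higher members were the 13 that fell against control and Pbk. Among the 14, Clspn, Bub1, Aurkb, Ube2c and Pbk entered the test through the groups in which they were high. Pbk, a kinase active in mitosis, was at 1, 0.976 and 1.23 CPM after formalin and 0.166, 0.246 and 0.141 CPM after CFA, a log2 fold change of 2.5 ± 0.76 (edgeR adjusted p = 0.035). It was lost without any one of the 3 formalin libraries, BNST CFA 1 or BNST CFA 3 (adjusted p up to 0.10). All 3 formalin values lay above all 3 CFA values for 20 of the 36 members, against 14.3% of all genes.

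Rrm2, Bub1 and Melk, whose calls in CFA against control rested on single libraries, kept their calls here with each library left out. Rrm2 was at 4.07, 4.39 and 4.17 CPM after formalin, and its log2 fold change over CFA was 1.6 ± 0.29 (edgeR adjusted p = 0.0019). Bub1 was at 1.24, 0.867 and 0.765 CPM (3.39 ± 0.77, edgeR adjusted p = 0.0079). Melk was at 1.06, 1.52 and 1.06 CPM (1.9 ± 0.40, edgeR adjusted p = 0.0052). Also kept with each library left out were the calls of Mki67, Top2a, Clspn, Mcm5, Ccna2 and Prc1, which makes 9 of the 15. The fit of the 9 BNST libraries alone called 10 members and lost Mcm5 and Ccna2 among these 9. That of the 6 compared libraries called 12 members and lost Mcm5 among them.

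The remaining calls of formalin against CFA rested on single libraries. Aurkb had a log2 fold change of 3.25 ± 0.89 (edgeR adjusted p = 0.022) and was lost without BNST formalin 1 or 2 or BNST CFA 1 (adjusted p up to 0.069). It held 31 counts after formalin and 3 after CFA, a ratio of 10.5 (exact 95% interval 3.27 to 53.5, counting error only). Cenpe, at 1.39 ± 0.37 (edgeR adjusted p = 0.018), was lost without BNST formalin 2 or BNST CFA 1 (up to 0.085). Kif15 and Ube2c (edgeR adjusted p = 0.039 and 0.036) were lost without 6 and 4 libraries. Without BNST formalin 2 the count was 9, without BNST formalin 1 or BNST CFA 1 it was 10, and without BNST CFA 2 it was 16, of which 12 were among the 15.

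A further 69 of 76 other cell cycle genes were tested. After CFA 14 fell, 1 rose and 54 were not called against control in the BNST, none was called after formalin, and 17 were higher, none lower and 52 not called in formalin against CFA. Their median log2 fold changes were -0.24, 0.10 and 0.41. The gene that rose was Cks2, a subunit of the cyclin-dependent kinases (0.88 on the log2 scale, edgeR adjusted p = 0.045), and its call was lost without any one of 15 libraries. Iqgap3, a scaffold protein, was at 1.73, 1.47 and 2.04 CPM in control, 1.59, 2.01 and 1.45 CPM after formalin and 0.386, 0.345 and 0.376 CPM after CFA, and fell by 2.22 (SE 0.35, edgeR adjusted p = 0.00031). Aspm, a spindle pole protein of neural progenitors, was at 2.35, 1.93 and 3.65 CPM in control and 0.717, 0.591 and 0.704 CPM after CFA (fell by 1.97, SE 0.39, edgeR adjusted p = 0.0019). Cenpa, the centromere histone, fell by 1.70 (SE 0.29, edgeR adjusted p = 0.00053), and these 3 held with each library left out. Knl1, the kinetochore scaffold, fell by 2.60 (SE 0.67, edgeR adjusted p = 0.010), lost without BNST control 3 (adjusted p = 0.073).

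The G1 cyclins and the inhibitors of cyclin-dependent kinases, which decide whether a cell enters the cycle, were mixed. Of 6 G1 genes, Ccnd2 fell after CFA by 0.93 (SE 0.26, edgeR adjusted p = 0.019) and Ccnd3 rose by 1.16 ± 0.32 (edgeR adjusted p = 0.018). Ccnd2 lost its call without BNST control 3 or BNST CFA 1 (adjusted p up to 0.079), and Ccnd3 without BNST control 2, BNST control 3 or BNST CFA 2 (up to 0.052). Cdkn1a, the p21 inhibitor, was at 9.64, 7.31 and 9.84 CPM in control, 9.66, 11.5 and 12.7 CPM after formalin and 23.9, 43.7 and 28.3 CPM after CFA. It rose by 1.84 ± 0.18 (edgeR adjusted p = 3.7e-06) and held with each library left out. In the mPFC Cdkn1a rose as well, from 19.2, 19.8 and 19.5 CPM to 43.1, 38.4 and 41.4 CPM (log2 fold change 1.07 ± 0.17, edgeR adjusted p = 0.0066), where no cell division gene was called. Cdkn1c, p57, was at 3.64, 60.8 and 3.52 CPM after CFA, so its log2 fold change of 3.16 ± 0.96 (edgeR adjusted p = 0.032) was 0.5 without the library rich in choroid plexus RNA, BNST CFA 2 (adjusted p = 0.48), and the call was also lost without any one of the 3 BNST controls.

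Of 12 neuroblast genes 4 fell after CFA in the BNST, none rose and 8 were not called, and in formalin against CFA 1 was higher (Dcx), 1 lower (Tubb3) and 10 were not called. Dcx, the microtubule protein of migrating neuroblasts, was at 59.0, 52.0 and 104 CPM in control, 66.2, 63.2 and 55.0 CPM after formalin and 37.6, 38.2 and 38.5 CPM after CFA (fell by 0.91, SE 0.20, edgeR adjusted p = 0.0050). Sp9, Dlx6os1 and Dlx5 fell by 0.89, 0.88 and 0.73. In the mPFC the mean of Dcx, given below, was also lower after CFA than in control. None of the neuroblast genes was called there for CFA against control, or in the region difference of the CFA change. Igfbpl1, named here after its values were seen, was at 7.35, 3.17 and 26.9 CPM in control and 5.02, 7.05 and 4.04 CPM after CFA, with its highest value in control replicate 3, as for most members. The summed level of the 12 genes, most of it from Tubb3, was 868 to 1020 CPM in control, 784 to 847 CPM after formalin and 787 to 984 CPM after CFA, with none at 0. In mPFC control it was 799 to 860 CPM. Because Tubb3 makes up most of it, this sum says little about the other genes of the list. Of 8 genes of neural stem and transit amplifying cells, 1 fell after CFA against control (Prom1) and 7 were not called, and 4 were higher in formalin against CFA, with Nes at 1.53 ± 0.29 (edgeR adjusted p = 0.0029). Their summed level was 175 to 263 CPM in control, 270 to 280 CPM after formalin and 172 to 224 CPM after CFA. The sums of both lists overlapped between control and CFA. The part of these cells in the change of the members was not tested.

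Oligodendrocyte precursors are also dividing cells of this tissue. None of 10 precursor genes was called in any comparison of treatments, and Pdgfra averaged 77 ± 8.51 CPM in control, 82.9 ± 1.26 after formalin and 81.0 ± 7.70 after CFA in the BNST. In the BNST 2 of the 10 had an unadjusted p under 0.05 in edgeR for CFA against control and 3 for formalin against CFA. The summed level of the 10 genes, of which Olig1 was the most abundant, was 433 to 523 CPM in control, 443 to 527 CPM after formalin and 466 to 501 CPM after CFA. With n = 3 the absence of a call does not show equal levels, and the part of these cells in the members' values was not tested.

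Markers of the striatum, which lies near the BNST, and of the habenula also differed between the same libraries. All 8 striatal genes fell after CFA against control. Adora2a, the adenosine receptor of striatal neurons, was at 145, 212 and 78.7 CPM in control, 69.5, 89.0 and 61.2 CPM after formalin and 11.5, 15.3 and 3.05 CPM after CFA (fell by 3.87, SE 0.46, edgeR adjusted p = 0.00010). The order of the 3 controls for Adora2a is the order for Clspn, with replicate 2 highest and replicate 3 lowest, whereas Mki67 and Top2a were highest in replicate 3. The orders of Adora2a and Clspn differed in the other BNST groups. Adora2a was highest in replicate 2 after formalin and after CFA, and Clspn in replicate 1 after formalin and replicate 3 after CFA. Replicate 3 was lowest for both genes after formalin. Clspn held 3, 7 and 8 counts in the CFA libraries, too few to order them. Whether both genes share a source was not tested. The summed level of the 8 genes was 950 to 2270 CPM in control, 863 to 1220 CPM after formalin and 137 to 480 CPM after CFA. Of 6 habenula genes 5 rose after CFA, and the summed level of the 6 was 24.1 to 53.6 CPM in control, 21.7 to 32.5 CPM after formalin and 88.5 to 174 CPM after CFA. Nwd2 was the most abundant of the 6. In mPFC control, where Pou4f1 was at 0, the sum was 99.2 to 103 CPM, so it says little about habenula tissue. What part the extent of the dissected tissue has in the members' values was not tested.

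**Figure D4:**
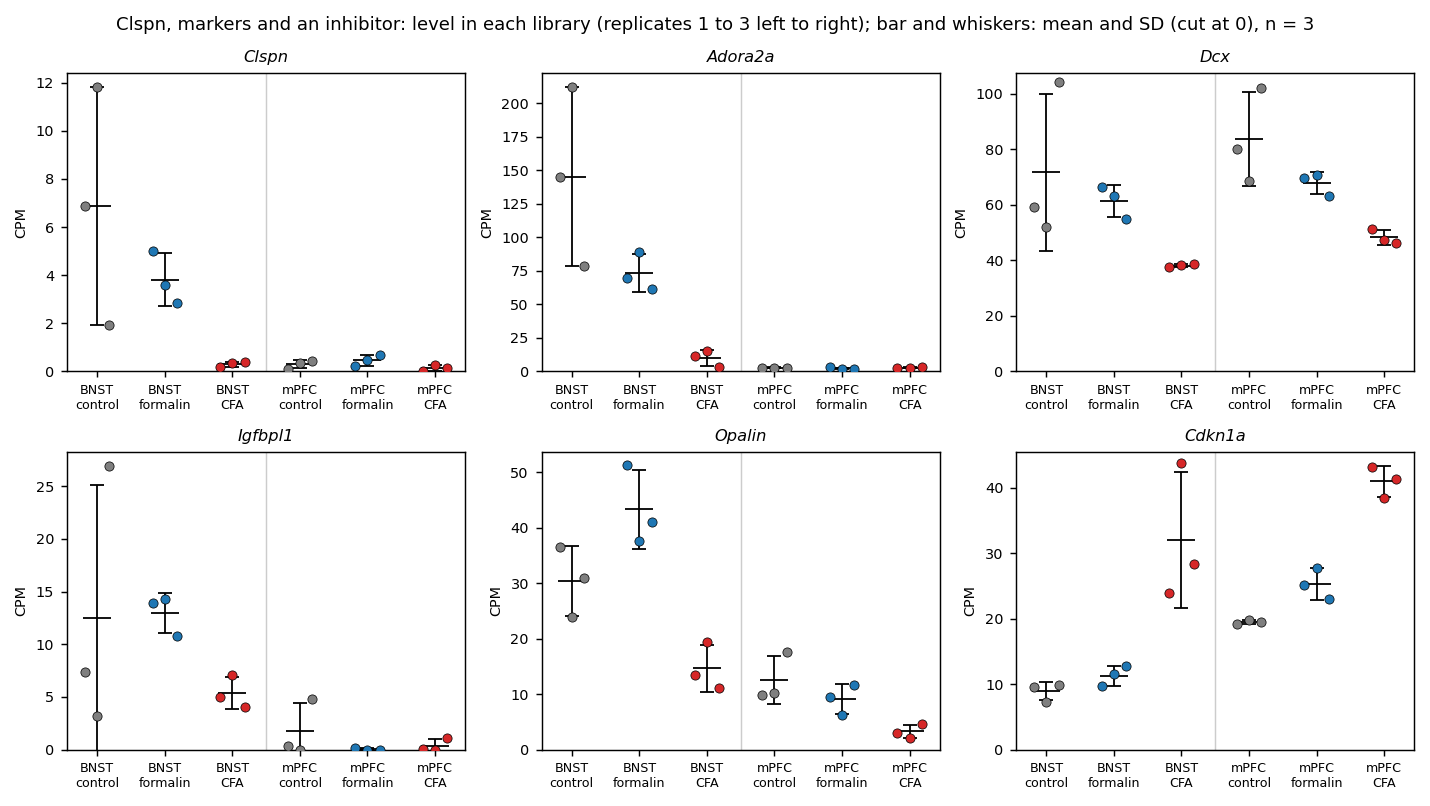
Level (CPM, y axis from 0) in each library of Clspn and of Adora2a (striatum), Dcx and Igfbpl1 (neuroblasts), Opalin (myelin) and Cdkn1a (cell cycle inhibitor), by region and treatment (x axis); bars and whiskers are the mean and SD of 3. Clspn and Adora2a share the order of the BNST controls, but not that of the BNST formalin or CFA libraries. In the BNST CFA libraries Clspn held 3, 7 and 8 counts, too few to order them. Dcx and Igfbpl1 are highest in control replicate 3, and Cdkn1a is higher after CFA in both regions.

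The first marker of each remaining cell type list gives the background of these groups. In BNST control, formalin and CFA, respectively, Egfr averaged 24.0, 26.2 and 18.8 CPM, the microglial P2ry12 32.5, 33.6 and 23.2 CPM, the endothelial Cldn5 10.3, 11 and 8.32 CPM and the ependymal Foxj1 36.7, 74.0 and 56.5 CPM. The choroid plexus gene Ttr averaged 197, 4820 and 5180 CPM, the striatal Drd1 104, 63.9 and 17.8 CPM, the habenular Pou4f1 0.529, 0.471 and 8.36 CPM and the haemoglobin gene Hba-a1 0.583, 2.65 and 0.760 CPM. In the mPFC, in the same order, Dcx averaged 83.5, 67.9 and 48.3, Egfr 23.6, 25.7 and 23.4, Pdgfra 64.4, 69.7 and 61.7, P2ry12 36.7, 47.7 and 29.9 and Cldn5 15.9, 11.2 and 8.68 CPM. Foxj1 averaged 3.34, 2.40 and 3.76, Ttr 0.255, 6.85 and 1.11, Drd1 14.9, 15.6 and 17.2, Pou4f1 0, 0.0684 and 0.0412 and Hba-a1 0.840, 1.47 and 0.652 CPM. Of the 12 microglial genes 1 was listed at 0 in every library, and 11 were tested. In the BNST 1 of these fell after CFA against control and 10 were not called, and none was called after formalin. In formalin against CFA 3 were higher, none lower and 8 not called. Their part in the members' values was not tested.

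In the mPFC no cell division gene passed the test in any of the 3 comparisons of treatments with edgeR. Of all genes tested, 0.0632% were called higher and 0.205% lower after formalin, 0.337% and 0.295% after CFA, and 0.374% and 0.558% in formalin against CFA. At an unadjusted p under 0.05 stood 6, 2 and 6 of the 36 members, beside 14.1%, 13.8% and 15.4% of all genes. Limma-voom called none. DESeq2 called 0, 0 and 1 members and gave no adjusted p for 14, 9 and 12. The medians of the members' log2 fold changes were -0.33, -0.46 and -0.06. Fold changes above 0 were found in 25%, 27.8% and 47.2% of the members, against 49%, 49.8% and 49.5% of all genes. More members thus lay below than above 0 after either agent in the mPFC as well.

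Levels in the mPFC were low and uneven. Mki67 was at 2.36, 1.73 and 5.83 CPM in control, 3.06, 1.72 and 2.26 CPM after formalin and 1.54, 1.85 and 3.54 CPM after CFA. Top2a was at 0.525, 0.741 and 3.43 CPM in control, 0.631, 0.0687 and 0.684 CPM after formalin and 0.118, 0.198 and 1.35 CPM after CFA. For both genes replicate 3 was the highest control and the highest CFA library, and the groups overlapped. Cdca2 was at 0.473, 0.444 and 0.709 CPM in control and 0.0901, 0.0687 and 0 CPM after formalin, without overlap, and its log2 fold change of -3.08 ± 0.87 was not called (edgeR adjusted p = 0.11). Ccnb2 was lower after formalin than in both other groups, at 0.495, 0.687 and 0.684 CPM against 1.42, 1.23 and 1.42 CPM in control, and was not called (edgeR adjusted p = 0.16 against control), although the fit of the 9 mPFC libraries alone called it, and its pseudogene Ccnb2-ps, which can share its reads, had a mean count of 92.8.

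In control mice, 10 cell division genes were higher in the BNST than in the mPFC and none was lower. The comparison sets the levels of both regions side by side without injury. The fit treats all libraries as independent, although 2 of the control brains gave a library of each region. The 10 stand beside 14.7% of all genes called higher and the 0 beside 12% called lower, and the median log2 difference was 0.68 for the members and 0.04 for all genes. Of the members, 17 had an unadjusted p under 0.05, against 47.3% of all genes. Anln, at 47.3 ± 7.42 CPM in the BNST and 15.4 ± 5.02 CPM in the mPFC, differed by 1.62 ± 0.22 (log2, SE, edgeR adjusted p = 2.6e-05). All 8 genes of myelinating oligodendrocytes were also called higher in the BNST (median log2 difference 1.44). So were 8 of 12 neuroblast, 5 of 10 precursor and 9 of 9 ependymal genes, with none lower in these lists, while 3 of 8 endothelial genes were lower. The part of these cells in the members' differences was not tested. Mki67, at 9.34 ± 2.92 and 3.31 ± 2.21 CPM, differed by 1.5 ± 0.39 (edgeR adjusted p = 0.0052). Clspn differed by 4.51 ± 0.65 (edgeR adjusted p = 4.2e-05), Aurka by 1.15 ± 0.26 (edgeR adjusted p = 0.0019) and Mcm4 by 0.68 ± 0.14 (edgeR adjusted p = 0.00096).

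Anln, Mki67, Clspn, Aurka and Mcm4 held with each library left out, and the other 5 did not. Top2a was lost without BNST control 3 or mPFC control 1 or 2 (edgeR adjusted p up to 0.080), and Mcm2 and Mcm3 without BNST control 1 or 3 or mPFC control 1 or 2 (both up to 0.13). Ube2c and Bub1 were lost without 8 and 12 of the libraries. Both, and Clspn, entered the test through the groups in which they were high. The count was 5 to 15 with each library left out, 5 without BNST control 3 or mPFC control 1 or 2, and 15 without BNST control 2. Blocking on the animal number that the study's column names give, which pairs 2 of the control brains, left 5 calls.

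**Figure D5:**
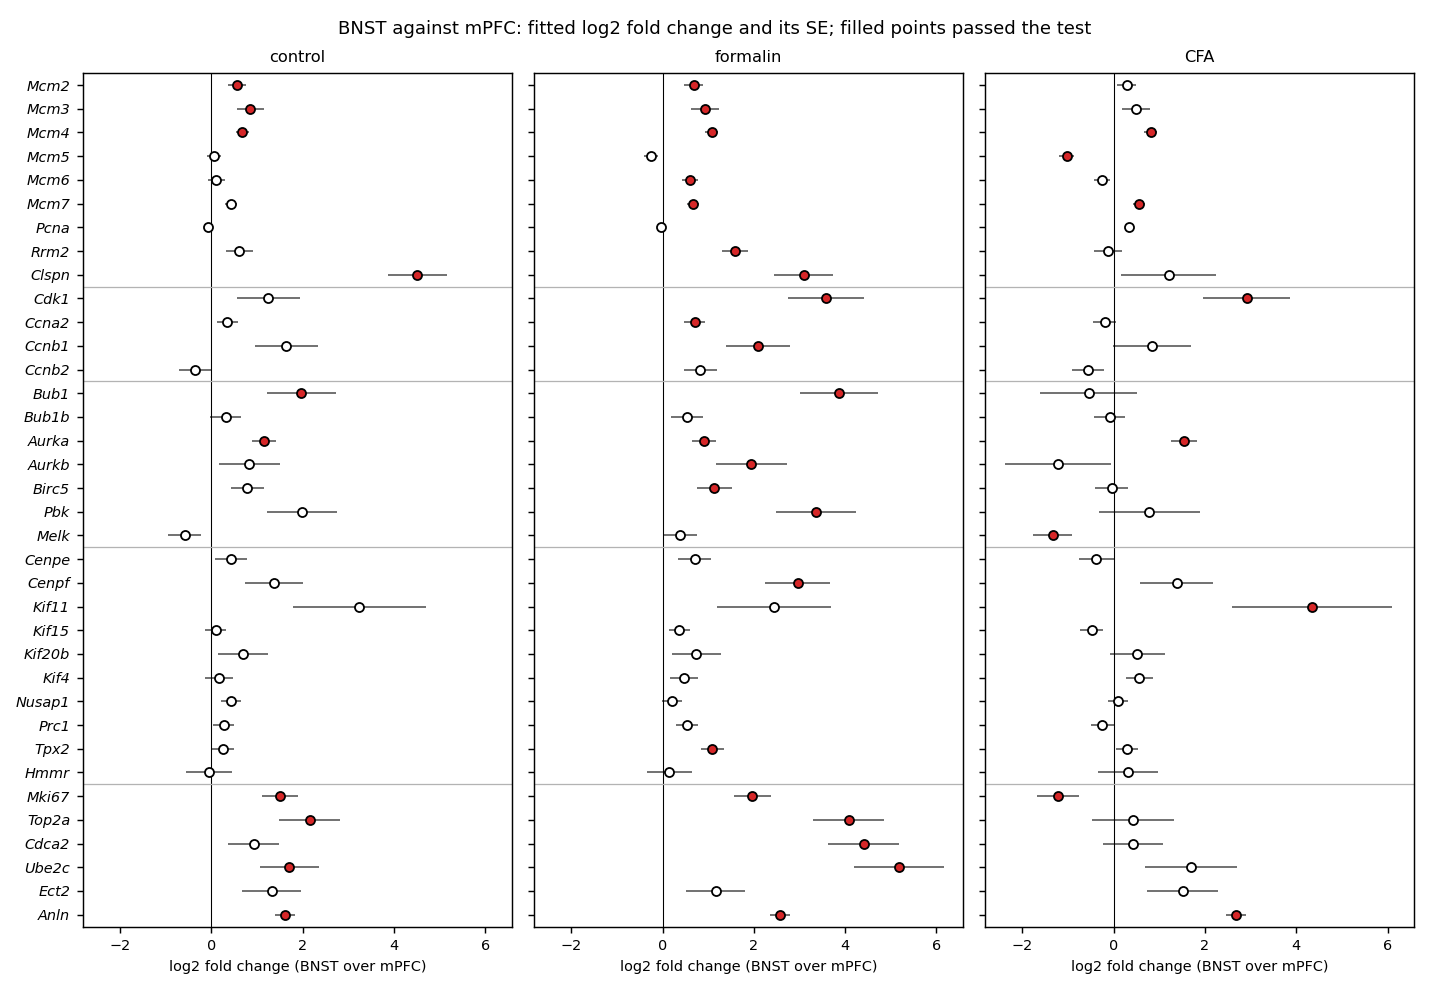
Fitted log2 fold change of BNST over mPFC (x axis, points) and its SE (lines) of the 36 members by role in control, formalin and CFA mice; filled points passed the test. In the formalin panel 22 points are filled, all above 0, and in the CFA panel 6 are filled above 0 and Mcm5, Melk and Mki67 below.

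After formalin, 22 members were higher in the BNST than in the mPFC, beside 18.8% of all genes, and none was lower, beside 14.5%. The median log2 difference was 1.01, and -0.01 for all genes, and 24 members had an unadjusted p under 0.05, against 53.4% of all genes. They included 7 of 9 replication genes, 3 of 4 cyclin genes, 5 of 7 kinase genes, 2 of 10 spindle genes and 5 of 6 genes of the last group. Anln differed by 2.57 ± 0.22 (log2, SE, edgeR adjusted p = 2.7e-07), Top2a by 4.08 ± 0.78 (edgeR adjusted p = 0.00056) and Mki67 by 1.97 ± 0.40 (edgeR adjusted p = 0.00068). All 8 myelinating oligodendrocyte genes were also called higher in the BNST (median log2 difference 2.33), and their part in the difference of Anln was not tested. Ube2c held 55 counts in the BNST and 1 in the mPFC, a ratio of 47.9 (exact 95% interval 8.25 to 1930, counting error only), and Cdca2 80 and 3 counts, a ratio of 23.2 (7.67 to 115). Both entered the test through the groups in which they were high, as did Bub1, Clspn, Cdk1, Aurkb, Ccnb1 and Pbk among the 22. With each library left out 16 of the 22 held, and those that did not were Mcm3, Aurka, Ccna2, Aurkb, Birc5 and Ccnb1. All 3 formalin brains gave a library of each region, which the fit treats as independent, and with the animal as a block 25 were called.

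After CFA, 6 members were higher in the BNST, beside 20.7% of all genes, and 3 lower, beside 17.4%, so neither count exceeded the share of all genes. Of the members, 10 had an unadjusted p under 0.05, against 58.4% of all genes, which is below that share too. Anln differed by 2.67 ± 0.22 (log2, SE, edgeR adjusted p = 1.2e-07), Aurka by 1.54 ± 0.28 (edgeR adjusted p = 0.00017) and Mcm4 by 0.81 ± 0.14 (edgeR adjusted p = 0.00013), and Mcm5 was lower in the BNST by -1.03 ± 0.16 (edgeR adjusted p = 3.4e-05). These 4 held with each library left out. The 8 myelinating oligodendrocyte genes were all called higher in the BNST here too (median log2 difference 2.21), and their part in the difference of Anln was not tested. Mki67 was lower in the BNST by -1.23 ± 0.46 (edgeR adjusted p = 0.033), lost without BNST CFA 2, BNST CFA 3 or mPFC CFA 3 (up to 0.20), and Melk by -1.34 ± 0.42 (edgeR adjusted p = 0.013), lost without BNST CFA 3 (0.061). Mcm7, Cdk1 and Kif11 were the other higher members, of which Cdk1 and Kif11 entered the test through the groups in which they were high. Mcm7 fell under the fold minimum without BNST CFA 2, Cdk1 was lost without BNST CFA 2 or mPFC CFA 1 (edgeR adjusted p up to 0.20), and Kif11 was lost without any one of 12 libraries. Without BNST CFA 2 the count was 5. All 3 CFA brains gave a library of each region, which the fit treats as independent, and with the animal as a block 9 were called.

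The change after CFA itself differed between the regions for 2 members, tested as an interaction. Both were lower in the BNST relative to the mPFC, beside 3.02% of all genes called lower, and none was higher, beside 1.15%. The 2 calls lie near that share, so they describe single genes and not the members as a set. Of the members, 5 had an unadjusted p under 0.05, against 19.4% of all genes, which is below that share. The members' median log2 fold change after CFA was -0.82 in the BNST and -0.46 in the mPFC. For Mki67 the change in the BNST minus that in the mPFC was -2.73 ± 0.60 (log2, SE, edgeR adjusted p = 0.014), and for Mcm5 it was -1.08 ± 0.22 (edgeR adjusted p = 0.0076). Mcm5 stood at 5.73, 4.84 and 4.69 CPM in mPFC control and 7.03, 5.62 and 5.92 CPM after CFA. Both held with each library left out. The fit treats libraries of a shared brain as independent, and with the animal as a block 2 members were called. Anln, at 1.05 ± 0.30, was not called (edgeR adjusted p = 0.060).

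The difference between formalin and CFA was larger in the BNST than in the mPFC for Mki67 (3.20 ± 0.61, log2, SE, edgeR adjusted p = 0.0080), Rrm2 (1.71 ± 0.43, edgeR adjusted p = 0.026), Cdca2 (3.98 ± 1.09, edgeR adjusted p = 0.039) and Mcm5 (0.78 ± 0.22, edgeR adjusted p = 0.044). The 4 stand beside 2.23% of all genes called higher, and none was lower, beside 1.94%. Of the members, 16 had an unadjusted p under 0.05, against 22.6% of all genes. Mki67 held with each library left out. Rrm2 was lost without 5 libraries and Cdca2 and Mcm5 without 11 each, and with the animal as a block 1 call was left. Cdca2 had entered the test through the groups in which it was high. For the formalin change, no member differed between regions with edgeR, beside 0.0474% of all genes called higher and 0.111% lower. At an unadjusted p under 0.05 stood 6 members, against 14.6% of all genes, DESeq2 called 1 and gave no adjusted p for 20, and limma-voom called none.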

How the data were processed

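RNA was sequenced from both regions of wild-type mice, 3 libraries in each of 6 groups. According to the labels and the study's methods, the authors trimmed paired 150 bp reads with Trimmomatic 0.39, aligned them with HISAT2 2.2.1 to GRCm38, and made the deposited table of raw read counts per Ensembl gene with featureCounts 2.0.1. Strand setting and annotation version are not given in the sources used here. GENCODE M21 gave symbols for the identifiers, 54349 of 55401 with the same version. Lanes and animal numbers came from column names of a supplementary table, joined by equal counts.

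Genes were kept by edgeR's filterByExpr (minimum count 10, total 15), which left 18994 genes with 99.88% of counts, scaled by TMM (factors 0.922 to 1.094) and fitted in 1 quasi-likelihood model with robust dispersion over 6 groups and 12 residual degrees of freedom (edgeR 4.0.16, R 4.3.3). The 12 comparisons were 6 of treatments, 3 of regions and 3 interactions. Adjusted p-values are from edgeR unless limma 3.58.1 or DESeq2 1.42.0 is named. CPM and TPM were computed from the deposited counts, TPM with summed exon lengths. Intervals of count ratios are exact, at 95%, and cover counting error only. The scripts were tested on simulated data. The members, gene lists and tests were chosen with earlier results of these data known. All 36 members were named by rule. From each other list up to 4 called genes with the largest fold change (mean level 1 CPM or more where higher), and the first marker of each cell type list, could be named, and exceptions are said where they occur.

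Samples with the same replicate number in a region deviated together little (correlation -0.19 to 0.31, above 0.1 in 4 of 18 pairs), as did the same animal number in both regions (-0.03 to 0.17, above 0.1 in 2 of 8). Animal numbers come from column names, not from the labels. Alternatives were DESeq2, limma-voom, RLE scaling, other filters, no fold minimum, fewer libraries in the fit, lane 2 only, replicate blocks and each library left out.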

Additional observations from a re-analysis of the deposited data

Results flagged for a closer look

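The results below were picked out because the change in the BNST differed from the change in the mPFC by a test of the difference itself, in edgeR. For CFA against control the difference of the log2 fold changes was -2.73 for Mki67 and -1.08 for Mcm5, a count of members near the 3.02% of all genes called lower. For formalin against CFA it was 3.2 for Mki67, 0.78 for Mcm5, 1.71 for Rrm2 and 3.98 for Cdca2. Both comparisons share the CFA libraries.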

How the results depend on the processing

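No call of a member, other cell cycle gene, G1 gene or inhibitor turned direction under any alternative run that gave an adjusted p. Cell type markers were not followed in this way. Counts of members called moved past 1.5 times the count reported in these cases. DESeq2 gave 1 for formalin against CFA in the mPFC, 1 for the region difference of the formalin change and 4 for that of the CFA change. Without a filter on low counts the region difference of the CFA change gave 1. A fit of 1 region's 9 libraries gave 1 for formalin against control and 1 for formalin against CFA in the mPFC, Ccnb2 in both, and a fit of the compared 6 libraries gave 4 for CFA against control in the BNST (Mki67, Top2a, Clspn and Anln) and 2 for formalin against CFA in the mPFC. The cause of these moves was not tested, beyond fewer libraries in the last fits.

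With each library left out, the count ranged from 8 to 17 for CFA against control and from 9 to 17 for formalin against CFA in the BNST, from 5 to 15 between regions in control, from 18 to 23 after formalin and from 5 to 9 after CFA. For the region differences it ranged from 0 to 1 (formalin change), 2 to 3 (CFA change) and 1 to 6 (formalin against CFA). Over the calls of members, other cell cycle genes, G1 genes and inhibitors, 3617 values kept their direction and side of the threshold and 379 lost the call. These values include runs without a library that was in neither compared group. In the BNST, 7 of the 14 member calls for CFA against control and 6 of the 15 for formalin against CFA were lost in at least 1 run.

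The replicate block by number moved no count past 1.5 times and left 15 members called for CFA against control in the BNST. The replicate block by animal number gave 5 between regions in control and 1 for the region difference of formalin against CFA. Aurkb, Bub1 and Ube2c had few counts, which limits their precision.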
